A study of Mus musculus with 2 samples.

Results

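The genes described here are the cytosolic ribosomal proteins of the mouse and the paralogs that share their names. They were chosen by symbol alone: Rpl or Rps with a number, Rplp0 to Rplp2, and Rpsa. The rule found 85 of 27998 annotated genes, of which 46 encode proteins of the large subunit, 31 encode proteins of the small subunit and 8 are paralogs of another member. A UMI, the tag that counts each captured transcript once, was seen for 84 members, and 82 members had at least 20 UMIs. The exceptions were paralogs: Rpl3l and Rpl10l had 1 UMI each, and Rpl39l had 0 UMIs, which allows up to 3 counts. Rpl6l is annotated as a processed pseudogene, and the other 84 members are annotated as protein coding.

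The data were single-cell transcriptomes of the lateral subventricular zone, the neural stem cell niche that lines the lateral ventricles of the adult brain. All mice were male C57BL/6. One library came from tissue of 8 mice aged 22 months that was pooled before sorting, and the other from pooled tissue of 4 mice aged 2 months, so single animals cannot be told apart. Cells positive for GLAST, a glutamate transporter of stem cells and astrocytes, and negative for O4, Ter119 and CD45 were sorted, and 8000 sort events per library went into a droplet assay that reads transcripts from the 3′ end.

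Ribosomal proteins assemble with ribosomal RNA in the nucleolus and are exported as the large and the small subunit of the ribosome. Their mRNAs are among the most abundant in growing cells and start with a pyrimidine tract, the 5′ TOP motif, through which mTOR signalling sets how much of them is translated. Neural stem cells that leave quiescence are known to raise protein synthesis before they divide, and their neuroblast progeny lower it again as they differentiate. A few members have a paralog with a closely related protein that may take their place in the ribosome, and these pairs are treated apart.

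Barcodes end in 1 or 2 for the library, and none of the labels says which age either number stands for. Library 1 and library 2 are therefore given side by side, and nothing is said of young or old. Library 1 had 10440891 UMIs in 1849 barcodes with a median of 4463 UMIs, and library 2 had 13330251 UMIs in 2088 barcodes with a median of 5763 UMIs. After filtering, 1826 and 2065 cells remained. Both libraries shared 4 barcode sequences. Cells were clustered without any member gene, so that ribosomal genes did not shape the clusters, and clusters were named after the class whose markers they carried. Quiescent means a cluster with markers that quiescent stem cells share with astrocytes and that do not separate them. Activated means activated stem cells or transit amplifying progenitors, and neuroblast means neuronal precursors, dividing ones included. The 15 quiescent markers summed to 24612 and 25101 CPM (UMIs scaled to a common total) for the quiescent class of library 1 and library 2, to 2019 and 1636 for the activated class, and to 1253 and 959 for neuroblasts. Each age had a single library without a replicate, which allows no test, and every interval is a 95% interval for counting error only.

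Start sites are shown first because the mRNAs of this family are known for the sequence at their first bases. Each stretch below is 30 bases of the sense strand from RefSeq (GRCm38.p6), with 10 bases before the annotated start and 20 from it, and capitals mark CTCTTT or CTTTCC, a pyrimidine run of the TOP kind. The members were picked as those furthest above and below the others in activated cells, and as the 2 paralog pairs whose balance differed most between cell classes. Rps26 (chr10:128626487-128626516, minus strand), Rps10 (chr17:27635225-27635254, minus), Rps27 (chr3:90213629-90213658, minus) and Rpl41 (chr10:128549149-128549178, minus) are followed by Rps27l (chr9:66946076-66946105, plus, first of 2 annotated starts), Rpl22 (chr4:152325716-152325745, plus, first of 2 starts) and Rpl22l1 (chr3:28805498-28805527, plus).
Rps26: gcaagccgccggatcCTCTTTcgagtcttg
Rps10: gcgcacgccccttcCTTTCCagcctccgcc
Rps27: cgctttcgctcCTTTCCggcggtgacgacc
Rpl41: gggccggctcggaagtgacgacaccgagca
Rps27l: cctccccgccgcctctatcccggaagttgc
Rpl22: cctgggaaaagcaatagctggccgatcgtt
Rpl22l1: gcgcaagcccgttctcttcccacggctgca
The member furthest above the others in activated cells, Rps26, and the core member furthest below them, Rps10, both carry a capitalised run at their start. Rplp0, Rpsa, Rpl10 and Rpl11, not shown, had no such run in the same window. Outside that window but within 50 bases of the start, Rpl10 had CTCTTT and the first start of Rpl22 had CTTTCC. Only these exact runs are capitalised, so other pyrimidine stretches stay in lower case.

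A start site with flanking sequence was found for 64 of the 85 members, 57 of them members other than paralogs. CTCTTT or CTTTCC, on the sense strand within 50 bases of the start, stood in 29 of those 57 genes (50.9%), against 8.76% of 17999 genes. Both runs can overlap, sharing the bases CTTT. In 300 bases around the start and on both strands, CCGGAAG, the core of the binding site of ETS factors such as GABP, stood in 42.1% of members and 12.5% of all genes. AAGATGGC, the core of the YY1 site, stood in 8.77% and 3.51%. TATAAA, the TATA box, stood in 10.5% of members and 14.3% of all genes, and GGGCGG, a binding site of Sp1, in 61.4% and 48.2%. Members with a TOP-like run and members without one had close ratios of activated over quiescent cells, with log2 medians of 0.91 (29 genes) and 1.06 (28 genes) in library 1 and 0.97 and 1.06 in library 2. Members without these exact runs can hold another pyrimidine stretch, so the split does not separate TOP mRNAs from others. A match describes letters in a window and is not a binding site, and RefSeq starts can lie some bases from the start used in these cells.

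Among clusters with at least 50 cells in both libraries, ribosomal protein transcripts took the smallest share of UMIs in the largest quiescent cluster and the largest in an unnamed cluster led by genes of neural progenitors. In cluster 0, led by the astrocyte genes Cxcl14, Slc7a10 and Htra1, members made up 5.02% of UMIs in 522 cells of library 1 and 5.53% in 296 cells of library 2. In cluster 2, led by Gsx1 and the Notch ligands Dll1 and Dll3, they made up 21.9% in 150 cells and 22.8% in 262 cells. Cluster 2 stayed unnamed under the marker rule, and 0.379% and 0.480% of its UMIs came from genes of the cell cycle phases, below the activated cluster 1 at 1.06% and 1.15%. Most markers of the activated class, such as Mki67, Top2a and Mcm2, are cell cycle genes, so the name itself selects for them. The small unnamed cluster 15 had 28.0% in 10 cells and 27.3% in 3 cells.

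The other quiescent clusters and the other large unnamed ones lay between these values. Cluster 10, with the immediate response genes Socs3, Junb and Cyr61, had 10.2% in library 1 and 11.8% in library 2. Cluster 7, led by Prss56, Notum and Ecel1, had 13.0% and 16.6%. Cluster 6, unnamed and led by Gfap, S100a6 and Thbs4, had 7.41% and 10.7%, and cluster 5, unnamed and led by the immediate early genes Atf3, Arc and Nr4a1, had 17.8% and 19.4%. Shares thus differed more among the clusters named quiescent than among the neuroblast clusters. Clusters 7 and 10 had weak quiescent names, with mean log2 folds of 0.48 and 0.58 over the quiescent markers, against 3.32 in cluster 0. The unnamed cluster 6 had 0.96 over the same markers.

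The activated cluster 1, led by Hist1h2ap, Ccna2 and Top2a, had 16.4% of its UMIs in ribosomal protein genes in library 1 and 18.4% in library 2. Among the neuroblast clusters the share was 19.5% and 20.7% in cluster 8, and 14.9% and 16.3% in the dividing cluster 4. It was 17.5% and 17.6% in cluster 9, and 15.4% and 16.2% in cluster 3. Cluster 8 had the weakest neuroblast name, with a mean log2 fold of 0.44 over the neuroblast markers. Ung and Rbfox3, among its leading genes, led a cluster that stayed unnamed under each of the other clustering settings described below. Oligodendrocytes, which do not belong to this lineage, had 8.11% in 101 cells of library 1 and 6.85% in 9 cells of library 2. Clusters 8 and 2 stood above clusters 1 and 4 in each library. Every cell was also thinned to 2000 UMIs, and cells with at least 3 UMIs of cell cycle phase genes were counted. They numbered 53 of 54 and 142 of 151 in cluster 8, and 124 of 150 and 241 of 262 in cluster 2. At most 3 cells per library in either cluster were too shallow to be thinned. The same call marked 226 of 686 thinned quiescent cells of library 1 and 159 of 405 of library 2. In neuroblast cluster 3 it marked 80 cells and left 74 in library 1, and marked 93 and left 57 in library 2. The call therefore cannot by itself show that a cell was dividing.

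**Figure D1:**
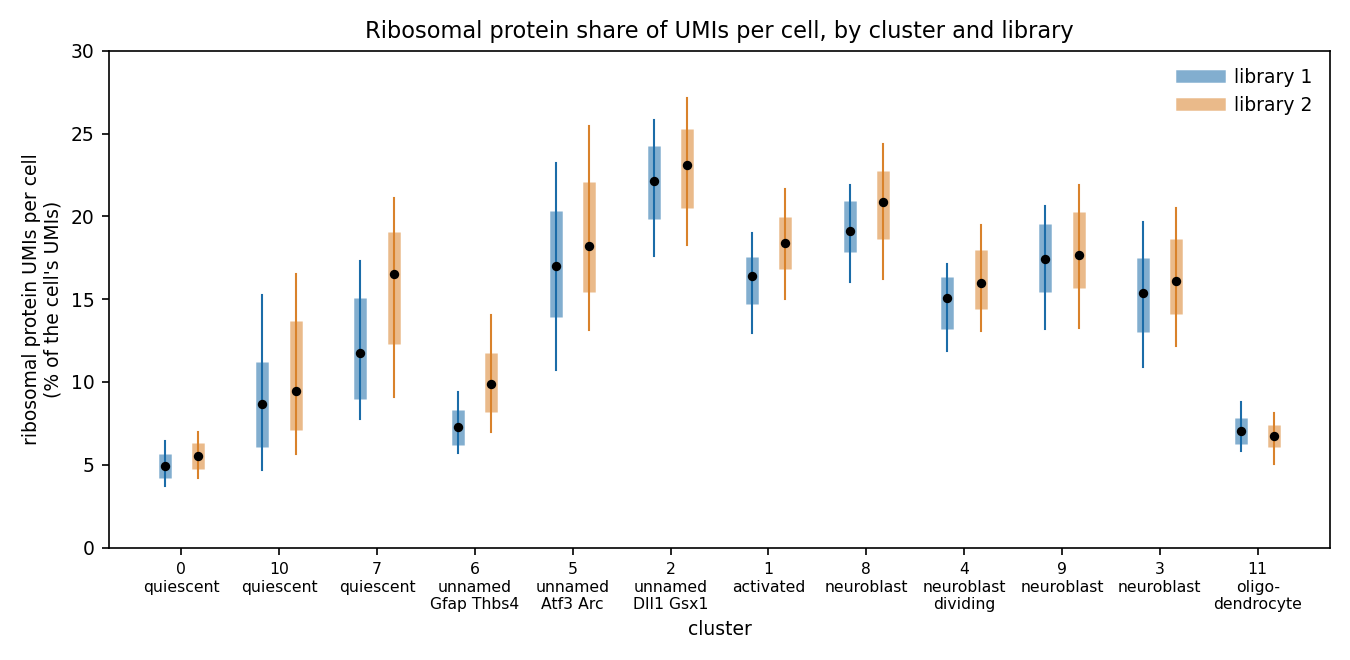
Share of ribosomal protein UMIs in each cell (y axis, % of the cell's UMIs) by cluster (x axis) and library, for the 11 clusters with at least 50 cells in both libraries and the oligodendrocytes. Black points are medians over cells, thick bars the quartiles and thin lines the 10th to 90th percentile. Of those 11, cluster 0 lies lowest, with medians of 4.92% and 5.51%, and cluster 2 highest, with 22.1% and 23.1%.

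Summed over classes, the share was 16.4% in activated cells and 8.02% in quiescent cells of library 1, and 18.4% in activated cells and 9.06% in quiescent cells of library 2. The log2 ratio of activated over quiescent cells was 1.03 (interval 1.02 to 1.04) in library 1 and 1.02 (1.01 to 1.03) in library 2, a 2.04-fold and 2.03-fold difference. Against cluster 0 alone, the same ratio was 1.71 and 1.73, so its size depends on which quiescent cells are counted. Median depth moved with this contrast, at 11545 and 10852.5 UMIs per activated cell against 3652 and 3596 UMIs per quiescent cell. Among cells of 4000 to 8000 UMIs the ratio was 0.84, from 10 activated cells, in library 1 and 0.69, from 35 activated cells, in library 2.

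Per cell, the median count of ribosomal protein UMIs was 1868 and 1999.5 in activated cells and 191 and 211 in quiescent cells. In neuroblasts the median was 642 and 1006 UMIs. The share of UMIs in neuroblasts, 16.4% and 17.7%, lay close to that in activated cells, with a log2 ratio of 0.001 (interval -0.006 to 0.008) in library 1 and -0.058 (-0.063 to -0.053) in library 2. Neuroblasts thus held fewer ribosomal protein transcripts per captured cell but nearly the same fraction of the transcriptome. A UMI count per cell reflects both RNA content and capture, which cannot be told apart here.

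Both subunits moved together. Activated cells had 9.49% and 10.6% of UMIs in large subunit genes, against 4.68% and 5.30% in quiescent cells, and 6.60% and 7.41% in small subunit genes, against 3.18% and 3.59% in quiescent cells. The ratio of large to small subunit UMIs was 1.47 in quiescent cells of both libraries, 1.44 in activated cells of both libraries, and 1.38 and 1.41 in neuroblasts. Among the 11 clusters with at least 50 cells in both libraries it was highest in cluster 0, at 1.503 (1.48 to 1.52) and 1.52 (1.49 to 1.54), and lowest in neuroblast cluster 3, at 1.34 (1.33 to 1.36) and 1.36 (1.34 to 1.38). The intervals of these clusters did not overlap, so the subunit balance differed between them by more than the counting error. They were picked as the highest and the lowest of the 11 on this same ratio.

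Activated cells had higher levels than quiescent cells for all 77 members other than paralogs in both libraries, and 74 and 77 of them were at least 1.5-fold higher. The background was large: of all genes with at least 20 UMIs in the contrast, 29.8% in library 1 and 30.4% in library 2 were at least 1.5-fold higher. The median log2 ratio of the 77 members was 0.95 and 1.00, against -0.04 and 0.03 for all genes, and single members ranged from 0.51 to 1.78 in library 1 and from 0.62 to 1.57 in library 2. Clustering had left these genes out, but the classes were defined on other genes of the same cells, so these ratios are a description.

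The member with the most UMIs was Rpl41, the shortest ribosomal protein, with 150274 UMIs over all barcodes, followed by Rps29 with 101001, Rpl13 with 79836, Rpl13a with 73565 and Rps27 with 72635. Rpl41 reached 7577 and 8501 CPM in activated cells, against 2473 and 3337 CPM in quiescent cells. Counts from the 3′ end do not scale with transcript length, and members are compared below with themselves across classes, as shares of the ribosomal protein UMIs, or as the balance of UMIs within a paralog pair.

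Rps26, a small subunit protein at the channel where the mRNA leaves the ribosome, had the largest excess in activated cells. It stood at 2558 CPM in activated cells of library 1 and 2768 in those of library 2, against 747 and 932 CPM in quiescent cells, a log2 ratio of 1.78 and 1.57. Its share among ribosomal protein UMIs separated the clusters into 2 levels that did not overlap. It was between 0.88% and 1.05% in clusters 0, 10, 7 and 6, and between 1.23% and 1.66% in clusters 5, 2, 1, 8, 4, 9 and 3 of either library. Of 2 other members at the same channel, Rps28 had log2 ratios of 1.40 and 1.36. Rps14 had 0.72 and 0.77, with an interval below the median member in both libraries.

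Rpl29, a large subunit protein, followed Rpl41 with 1743 and 1805 CPM in activated cells, against 606 and 689 CPM in quiescent cells. The P stalk of the large subunit recruits the elongation factors and is built on Rplp0, with Rplp1, Rplp2 and Rpl12. Rplp0 reached 3043 and 3377 CPM in activated cells, against 1142 and 1258 CPM in quiescent cells, a log2 ratio of 1.41 and 1.43. Within the ribosomal protein UMIs it took 0.89% in cluster 0 of both libraries and between 1.53% and 1.87% in every other cluster compared except cluster 6, where it took 1.097% and 1.31%. The 4 stalk members had a median log2 ratio of 1.24 in library 1 and 1.09 in library 2.

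At the low end of the members other than paralogs, Rps10 had 1030 and 1259 CPM in activated cells, against 725 and 822 CPM in quiescent cells, a log2 ratio of 0.51 and 0.62. Rpl7a followed with log2 ratios of 0.57 and 0.62, and Rpl11 with 0.57 and 0.65. Rpl11 forms, with Rpl5 and a small ribosomal RNA, the particle that can bind and inhibit Mdm2, the ubiquitin ligase of p53. Rpl10, needed for the last step of large subunit maturation, had log2 ratios of 0.61 and 0.65. These members were higher in activated cells like all the others, but took a smaller part of the ribosomal protein pool there.

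The order of members was similar in both libraries. Relative to the median member, 69 of 77 lay on the same side in library 1 and library 2, and for 24 members the interval lay above the median in both libraries, for 22 below it. Both libraries were grouped by the same clustering, so this similarity is a description.

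**Figure D2:**
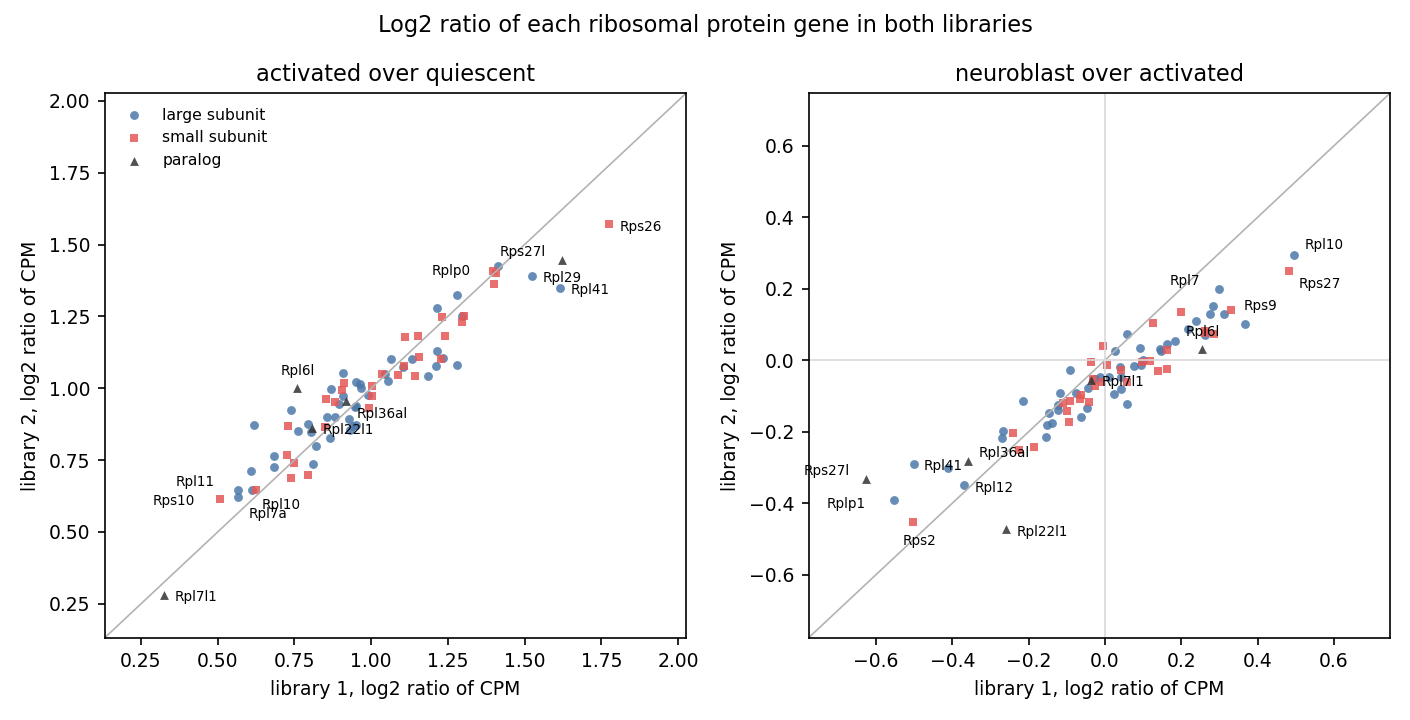
Log2 ratio of CPM for each member with at least 20 UMIs in library 1 (x axis) and library 2 (y axis), for activated over quiescent cells (left) and neuroblasts over activated cells (right). Each point is 1 gene and the grey line marks equal ratios. All points on the left lie above 0, from Rpl7l1 at 0.32 and 0.28 to Rps26 at 1.78 and 1.57, while on the right they lie on both sides of 0.

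Between neuroblasts and activated cells the family as a whole differed little in level, while its makeup differed. Of the 77 members, 40 were higher in neuroblasts of library 1 and 26 in those of library 2, and 25 were higher and 36 lower in both. Of all genes, 46.6% and 46.7% were higher and 53.4% and 53.3% lower by any amount. No member other than paralogs reached 1.5-fold in either direction in either library, where the background was 17.5% and 13.3% of genes higher and 19.5% and 15.3% lower. Rpl10 and Rps27 stood furthest above the median member. Rpl10 had 1928 and 1836 CPM in neuroblasts, against 1367 and 1498 CPM in activated cells. In neuroblasts Rps27, a zinc finger protein of the small subunit, had 3676 and 3772 CPM, against 2634 and 3173 CPM in activated cells. Rpl7, Rps9 and Rpl11 came next, with log2 ratios of 0.30, 0.33 and 0.37 in library 1 and 0.20, 0.14 and 0.10 in library 2.

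Of the members other than paralogs, those furthest below the median were Rps2, Rplp1 and Rpl41. Rps2, which lines the channel where the mRNA enters, had 1591 and 1834 CPM in neuroblasts, against 2255 and 2511 CPM in activated cells, a log2 ratio of -0.50 and -0.45. Rplp1, one of the paired acidic proteins at the tip of the P stalk, had 1940 and 2291 CPM in neuroblasts, against 2847 and 3002 CPM in activated cells. Rpl41 had 5351 and 6953 CPM in neuroblasts, against 7577 and 8501 CPM in activated cells. All 4 stalk members were lower in neuroblasts, with a median log2 ratio of -0.26 in library 1 and -0.27 in library 2.

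The makeup of the pool is described by 2 example patterns along the classes, and not every member followed either. Rps27 took 2.13% and 2.24% of ribosomal protein UMIs in quiescent cells, 1.61% and 1.72% in activated cells, and 2.24% and 2.13% in neuroblasts, so it was lowest in the activated class, as were Rpl10 and Rpl11. Rps26 took 0.931% and 1.03% in quiescent cells, 1.56% and 1.504% in activated cells, and 1.55% and 1.61% in neuroblasts, and so stayed at the activated level. Rpl41 and Rps2 belonged to neither pattern. Rps2 took 1.20% and 1.17% in quiescent cells, 1.37% and 1.36% in activated cells, and 0.969% and 1.04% in neuroblasts, below both earlier classes.

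**Figure D3:**
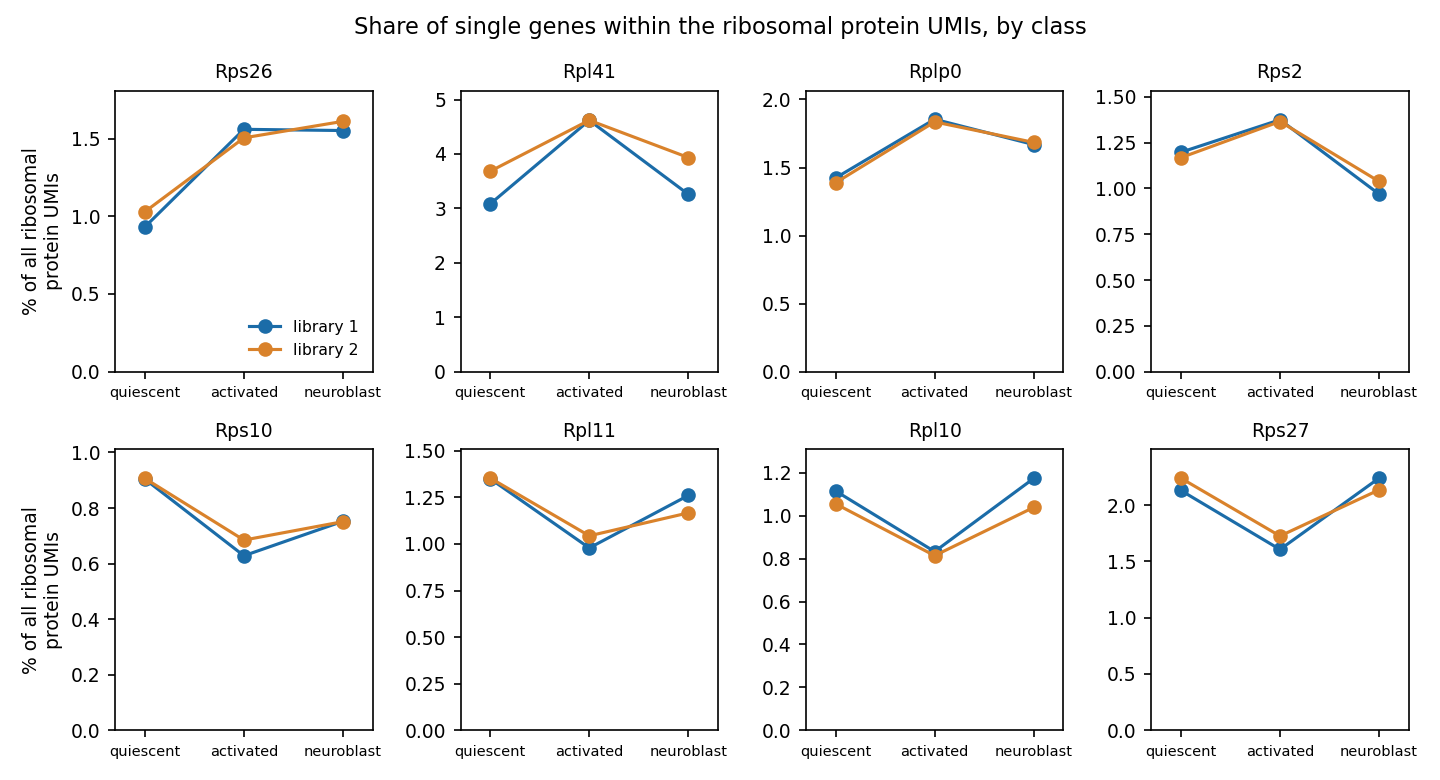
Share of 8 single genes within all ribosomal protein UMIs (y axis, %, starting at 0) in the quiescent, activated and neuroblast class (x axis), with 1 line per library. Rps26 is at 0.931% and 1.03% in quiescent cells and between 1.504% and 1.61% afterwards, while Rps27, Rpl10, Rpl11 and Rps10 are lowest in activated cells.

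Rps27l, the paralog of Rps27 and known as a p53 target in human cells, had a higher share of the pair in activated cells than in quiescent cells or neuroblasts. It made up 23.1% (22.1 to 24.2%) of the UMIs of both genes in activated cells of library 1 and 18.6% (17.98 to 19.3%) in those of library 2, against 13.1% and 11.6% in quiescent cells. The difference was 10.0 percentage points (8.68 to 11.4) in library 1 and 7.01 points (5.76 to 8.22) in library 2. Neuroblasts as a class had 12.2% and 13.3%, a difference from activated cells of -10.9 points (-12.1 to -9.62) and -5.37 points (-6.21 to -4.52). Among the neuroblast clusters the share was 19.1% and 15.9% in the weakly named cluster 8, and 14.9% and 15.2% in cluster 4. It was 8.73% and 8.94% in cluster 9, and 6.13% and 5.53% in cluster 3. Both genes contributed, with Rps27l at 290 and 287 CPM and Rps27 at 4433 and 4902 CPM in cluster 3, and Rps27l at 791 and 727 CPM and Rps27 at 2634 and 3173 CPM in cluster 1. In activated over quiescent cells, 48.5% of all genes in library 1 and 50.7% in library 2 were higher by any amount. Of other p53 targets, 11 were higher and 9 lower in activated than in quiescent cells of library 1, and 13 higher and 6 lower in library 2. Among those with at least 50 UMIs Cdkn1a, a cell cycle inhibitor, had the largest ratio and stood at 37.8 and 9.54 CPM in quiescent cells, at 202 and 75.9 in activated cells, and in neuroblasts at 54.9 and 28.0 CPM.

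Rpl22l1 had more UMIs than its parent Rpl22, an RNA-binding protein of the large subunit, in all 3 classes, with the smallest margin in neuroblasts. It made up 61.0% and 62.8% of the pair in activated cells and 62.7% and 64.6% in quiescent cells, a difference of -1.65 points (-4.04 to 0.75) in library 1 and -1.78 points (-4.17 to 0.65) in library 2. In neuroblasts it made up 52.97% and 53.3%, a difference from activated cells of -8.05 points (-10.4 to -5.69) and -9.44 points (-11.04 to -7.83). It had fewer UMIs than Rpl22 in neuroblast cluster 9, at 45.3% (41.4 to 49.1%) and 43.4% (40.0 to 47.0%) of the pair. Cluster 3 had 51.3% (47.6 to 55.0%) and 43.6% (39.8 to 47.5%), and the dividing cluster 4 had 59.2% and 58.3%. Quiescent cluster 10 had 68.6% and 72.7%, and cluster 0 had 68.7% and 62.3%. Rpl22 itself stood at 1016 and 1035 CPM in cluster 9, against 700 and 815 CPM in activated cluster 1, and Rpl22l1 at 840 and 795 CPM in cluster 9, against 1096 and 1376 CPM in cluster 1.

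Rpl36al, a paralog of Rpl36a, made up 27.3% and 27.2% of its pair in activated cells and 31.1% and 28.4% in quiescent cells. Cluster 0 stood apart with 38.5% and 35.1%, where the other lineage clusters ranged from 22.3% to 30.6%. Rpl7l1, which has the lowest count of the measured paralogs (1903 UMIs), was the member with the smallest excess in activated cells, at 81.6 and 81.9 CPM against 65.2 and 67.4 CPM in quiescent cells. Its share of the pair with Rpl7 was 6.63% and 6.08% in activated cells and 7.96% and 8.02% in quiescent cells. Rpl6l, the annotated pseudogene, gives a comparison of another kind: its share of the pair with Rpl6 stayed between 20.1% and 25.3% in all 11 clusters of both libraries, and no class difference had an interval without 0. How reads that match near-identical copies were counted is not given in the sources used here, so the level of each paralog is uncertain to that extent.

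**Figure D4:**
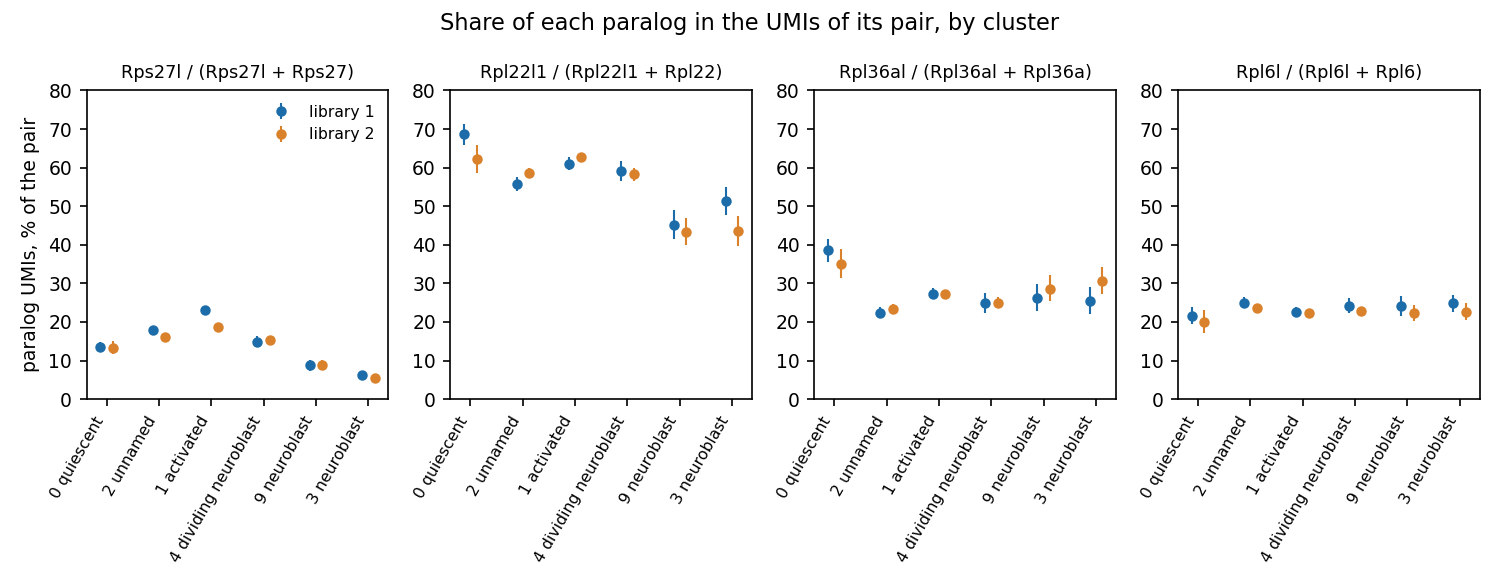
Paralog UMIs as a percentage of the UMIs of the pair (y axis) in 6 clusters along the lineage (x axis), with exact 95% binomial intervals for counting error, in library 1 and library 2. Rps27l is highest in activated cluster 1 (23.1% and 18.6%) and lowest in neuroblast cluster 3 (6.13% and 5.53%), while Rpl6l stays between 20.1% and 25.04% in the clusters drawn.

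Other genes of protein synthesis did not follow the ribosomal proteins in one step. Ribosome biogenesis factors, which process ribosomal RNA and assemble the subunits, were higher in activated than in quiescent cells for 67 of 73 measured genes in library 1 and 66 of 72 in library 2, with medians of 0.73 and 0.79 on the log2 scale. Of all genes, 48.5% and 50.7% were higher by any amount, and single genes are named from those with at least 50 UMIs in the contrast. Nop58, a core protein of box C/D snoRNPs, was at 205 and 185 CPM in activated cells, against 54.4 and 38.8 CPM in quiescent cells, and Ddx21 and Nolc1 followed with log2 ratios of 1.84 and 1.63 in library 1. Sbds, which releases a factor from the new large subunit, went the other way with 48.0 and 40.5 CPM in activated cells, against 111.8 and 82.9 CPM in quiescent cells.

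In neuroblasts the biogenesis factors were lower than in activated cells for 62 of 71 and 63 of 73 genes, with medians of -0.42 and -0.35. The ribosomal proteins had medians of 0.01 and -0.05 in the same contrast. The median biogenesis gene thus lay below the median ribosomal protein in both libraries. Other mRNAs with a TOP motif and ribosome-associated proteins were higher in neuroblasts for 15 and 13 of 22 genes, with medians of 0.21 and 0.15, where 46.6% and 46.7% of all genes were higher.

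Initiation factors had median log2 ratios of 0.59 and 0.55 in activated over quiescent cells, with 30 and 31 of 37 higher, where 48.5% and 50.7% of all genes were higher. Eif4g2 and Eif3a had the largest excess, at 1.74 and 1.73 in library 1, and Eif4a2, an RNA helicase of the cap-binding complex, was lower in activated cells at 179 and 245 CPM against 467 and 457 CPM. For elongation and release factors the medians were 1.14 and 1.00, and 10 of 12 genes were higher in each library. Among those with at least 50 UMIs the release factor genes Etf1 and Gspt1 led in library 1 at 1.62 and 1.65, and Eef2k, the kinase that blocks elongation factor Eef2, was lower in activated cells with log2 ratios of -0.83 and -0.76. Among other TOP mRNAs, 20 and 21 of 22 were higher, led by Hnrnpa1 with 1242 and 1393 CPM in activated cells, against 278 and 299 CPM in quiescent cells, and by Nap1l1 and Pabpc1.

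Ribosomal proteins of the mitochondrion, encoded by a separate set of nuclear genes, differed less. Of 77 genes, 57 and 61 were higher in activated than in quiescent cells, where 48.5% and 50.7% of all genes were higher. Their medians were 0.31 and 0.30. Genes of the Myc and mTOR pathways, which regulate ribosome production, had medians of -0.00 and 0.03. Within that list Eif4ebp1, a translation repressor that mTOR inactivates, was higher in activated cells with log2 ratios of 1.70 and 2.33, and Mxd4, a Myc antagonist, and Sesn3, an mTOR inhibitor, were lower with -1.75 and -1.82 in library 1. The p53 targets, counted above, had medians of 0.15 and 0.41. Of 14 host genes of small nucleolar RNAs only 3 could be measured in this contrast in library 1.

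**Figure D5:**
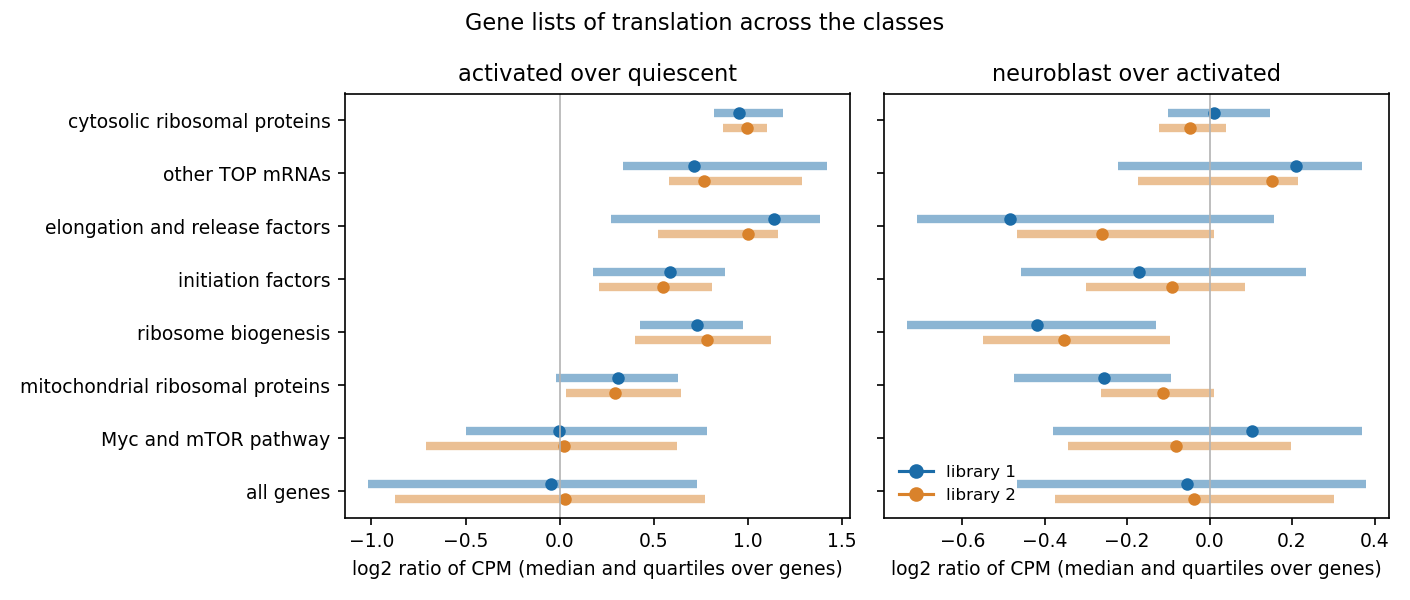
Log2 ratios of CPM (x axis) of 7 gene lists and of all genes for activated over quiescent cells (left) and neuroblasts over activated cells (right), with points for medians over genes and bars for quartiles, in library 1 and library 2. Ribosomal proteins have medians of 0.95 and 1.00 on the left and 0.01 and -0.05 on the right, where biogenesis factors have -0.42 and -0.35.

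Ribosomal protein shares were lower in library 1 than in library 2 throughout the lineage. The log2 ratio of library 1 over library 2 was -0.18 (-0.18 to -0.17) in quiescent cells, -0.17 (-0.17 to -0.16) in activated cells and -0.11 (-0.11 to -0.10) in neuroblasts. All 11 clusters with at least 50 cells in both libraries had the lower share in library 1, and for 10 of them the interval lay below 0. The difference was largest in cluster 6 at -0.53 and cluster 7 at -0.35, and smallest in cluster 2 at -0.054 and cluster 9 at -0.004, whose interval of -0.02 to 0.01 includes 0. Cluster 6 held 50 cells of library 1 and 215 of library 2, and the source of this imbalance was not tested.

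Single genes showed the same small offset. Of the 77 members, 75 were lower in library 1 in quiescent cells, 77 in activated cells and 70 in neuroblasts, where 44.9%, 43.1% and 45.5% of all genes were lower by any amount. None was 1.5-fold lower, against 5.72%, 6.23% and 6.4% of all genes. Mitochondrial ribosomal proteins did not share the offset in the first 2 of these classes, with medians of 0.07 in quiescent and 0.06 in activated cells, and -0.06 in neuroblasts. The biogenesis factors had medians of 0.16, 0.11 and 0.08 in the same classes. Thus in quiescent and activated cells the cytosolic ribosomal protein mRNAs were lower in library 1, while the median biogenesis factor was not.

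In quiescent cells Rpl41 differed most, at 2473 CPM in library 1 and 3337 CPM in library 2, a log2 ratio of -0.43, and Rps29, Rps15, Rplp2 and Rps26 followed between -0.34 and -0.32. Rpl5 was the member furthest the other way, at 347 and 308 CPM with a log2 ratio of 0.17, and Rpl6l, Rpl3, Rpl36al and Rpl30 lay between -0.01 and 0.03. In activated cells Rpl22l1 was lowest with -0.33, followed by Rps10, Rps15, Rps27 and Rpl11 between -0.29 and -0.26. Rps27l was higher in library 1 at 0.12, and Rpl7l1, Rps20, Rpl5 and Rpl12 lay between -0.04 and -0.004. In neuroblasts Rpl41 was lowest at -0.38 and Rpl14 next at -0.32, while Rpl8, Rplp1 and Rpl19 lay between -0.24 and -0.21. Rpl10 was the furthest above at 0.071, and Rpl23a, Rps14 and Rpl7l1 lay between 0.02 and 0.03. Rpl41 thus led in 2 of the 3 classes.

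Markers of another cell type moved with the library. The 10 oligodendrocyte markers summed to 535 CPM in library 1 and 222 CPM in library 2 in quiescent cells, to 344 and 68.5 CPM in activated cells and to 352 and 78.03 CPM in neuroblasts, with at most 1 of the 10 at 0 in any of these sums. Oligodendrocytes made up 5.53% of library 1 and 0.436% of library 2. Their part in the difference was not tested. The library number could not be tied to an age. The libraries differ in age and in animals at once, and these cannot be told apart.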

How the data were processed

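The authors deposited one matrix of raw UMI counts per gene and barcode for both libraries. Cell Ranger 2.0.0 is the tool given by the submitters' processing notes; how cells were called and libraries merged is not given in the sources used here. Barcodes under 500 genes or over 10% mitochondrial UMIs were removed (9 and 13), and Scrublet at an expected rate of 1.5% marked 14 (0.757%) and 10 (0.479%) doublets, which were removed. Counts without member genes were scaled to 10000, and 2000 variable genes, 30 components, 15 neighbours and Leiden resolution 1 gave the clusters (Python 3.11.15, scanpy 1.11.5, leidenalg 0.10.2, numpy 2.4.6, scipy 1.17.1). A cluster took the class name with the highest mean log2 fold over other cells (10 CPM added) if at least 3 of its markers reached 1.5-fold in at least 10% of cells and no other class had more markers among the 10 leading genes. There were 138 marker entries for 14 classes. The rule for naming was made with the clusters in view, and revised once. UMIs were summed per class and library (CPM); ratios have conditional exact intervals, shares Clopper-Pearson intervals, differences of shares Newcombe intervals. Ratios used genes whose UMIs on both sides summed to 20 or more, and none was tested. A member at 0 on 1 side would be set to 3 counts. Named members were those with most UMIs, all paralogs, and the 5 highest and 5 lowest relative to the median member in each contrast with at least 200 UMIs. Values of 1 member that these rules name are not reported here. Members and lists were chosen with earlier results of these data known. Ratios and intervals were checked on simulated data. Gene types are from GENCODE M21 (GRCm38).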

Additional observations from a re-analysis of the deposited data

Results flagged for a closer look

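Library differences of Rpl10 and Rps27l went opposite ways in different classes, and the difference between classes was not tested. Rpl10 had a log2 ratio of library 1 over library 2 of 0.071 in neuroblasts, -0.10 in quiescent cells and -0.13 in activated cells. Rps27l had 0.12 in activated cells and -0.17 in neuroblasts.

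Genes outside the rule carried signal of the same family: 16 entries named as ribosomal protein pseudogenes, 15 of them with at least 20 UMIs, had 80471 UMIs over all barcodes, equal to 2.14% of the UMIs of the members. Rps12-ps3 had 14076 UMIs, equal to 52.0% of the UMIs of Rps12, and Rpl10-ps3 had 12414, equal to 34.4% of those of Rpl10. Rps26-ps1 had 351 and 510 CPM in activated cells, against 85.4 and 152 CPM in quiescent cells.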

How the results depend on the processing

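No paired analysis was possible because each age had 1 library. No value separates cycling from other activated cells, since every thinned activated cell was called cycling. Values below are for library 1, then library 2, and causes were not tested.

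The log2 ratio of activated over quiescent cells was 0.76 and 0.71 when cells under 1000 genes or over 5% mitochondrial UMIs were left out (strict filter), 1.05 and 1.03 at resolution 2, 1.17 and 0.99 with members allowed in clustering, 1.20 and 1.15 thinned to 2000 UMIs, 1.71 and 1.73 in the largest cluster of each class, 0.84 and 0.69 in cells of 4000 to 8000 UMIs (chosen after seeing the data), and 1.01 in library 2 without mitochondrial UMIs. The ratio of neuroblasts over activated cells was -0.070 and -0.15 under the strict filter, -0.070 and -0.15 at resolution 2, -0.097 and -0.15 with members in clustering, 0.014 in library 1 thinned, -0.092 and -0.18 in the largest clusters, and 0.16 and 0.077 in the depth band, a reversal in library 2. The large to small subunit log2 ratio of activated over quiescent cells in library 1 reversed to 0.022 in the depth band.

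Library 1 over library 2 stayed below 0 under every alternative. Quiescent cells had -0.21 (strict filter), -0.32 (members in clustering), -0.22 (thinned), -0.14 (largest cluster) and -0.33 (depth band). Activated cells had -0.14 (members in clustering), -0.17 (thinned) and -0.18 (depth band). Neuroblasts had -0.085 (strict filter), -0.087 (resolution 2), -0.088 (members in clustering), -0.072 (largest cluster) and -0.0996 (depth band).

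The count of members 1.5-fold higher in activated cells was 49 in library 2 in the depth band, which held 35 activated cells. The matching share of all genes in the band is not given here. The Rps27l share, neuroblasts minus activated cells, was -12.3 and -6.25 points (strict filter), -13.4 and -7.68 (resolution 2), -6.47 in library 2 (members in clustering), -14.3 and -7.72 (thinned), -17.0 and -13.1 (largest clusters), and -7.80 and -4.20 (depth band). Activated minus quiescent cells gave 11.7 in library 1 (thinned), 5.34 in library 2 (largest clusters) and 7.35 in library 1 (depth band). For Rpl22l1, neuroblasts minus activated cells in library 2 gave -11.2 (resolution 2), -13.6 (thinned), -19.2 (largest clusters) and -12.3 (depth band), and activated minus quiescent cells gave 0.69 in library 2 (members in clustering) and -7.71 in library 1 (largest clusters). The Rpl7l1 share, neuroblasts minus activated cells, reversed to 0.20 points in library 2 in the depth band.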
